A study of Homo sapiens with 22 samples.

Results

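The 403 regions described here are places at which the list of FOXA2-bound regions of vehicle-treated PC3 cells was met by nearly every other list of the series. They were chosen by the overlaps themselves: a region of that list was taken when it was overlapped by at least 1 bp in 17 or more of the 22 deposited lists, itself included, and 403 of its 24038 regions met this rule. They are called shared places below, and the remaining 23635 regions of the list are called the other regions. Because the overlaps chose the shared places, the numbers of lists, the scores and the widths are given as a description with no test.

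The study followed the pioneer factor FOXA2 and the AP-1 subunits JUN and FOSL1 through 3 prostate cancer lines of human origin. PC3 lacks the androgen receptor, NCI-H660 is neuroendocrine, and LNCaP is luminal and holds the androgen receptor. ChIP-seq sequences the DNA that an antibody brings down with a protein, and ATAC-seq sequences the DNA that a transposase can enter. FOXA2 was profiled in PC3 cells under vehicle, ORY-1001 (10 µM, 4 h) or C12 (0.5 µM, 4 h), both inhibitors of the demethylase LSD1, and in NCI-H660 cells under vehicle or ORY-1001 at the same dose and time. Another pair of vehicle-treated PC3 FOXA2 lists had no antibody in their labels, and they are called the unlabelled pair. JUN was profiled after a control siRNA (siNC) or an siRNA to FOXA2 (siFOXA2) in PC3 and NCI-H660 cells, and FOSL1 after the same siRNAs in PC3 cells. In LNCaP cells JUN was profiled after siNC or an siRNA to FOXA1 (siFOXA1). It was also profiled under vehicle in cells stably expressing FOXA2 (FOXA2OE) and in cells titled FOXA2K265R, a lysine-to-arginine FOXA2 mutant. Another label of the FOXA2K265R sample names the FOXA2OE line. FOXA2 itself was profiled in vehicle-treated FOXA2OE cells. H3K27ac and ATAC were profiled in vehicle-treated PC3 cells, and H3K4me2 and ATAC in vehicle-treated NCI-H660 cells. These gave 21 groups, and each group but the unlabelled pair held 1 list.

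The lists held between 1538 and 210960 regions. A score from the authors' peak caller came with 20 of them, starting at 13 in most lists and at 14, 23 or 30 in the others, and here it ranks the regions of a list. The FOXA2OE FOXA2 and LNCaP siNC JUN lists had no score. No list gave read numbers, so the depth behind a region was unknown, and a missing overlap says only that no region was listed there. Outside the unlabelled pair each group was 1 library, so those 20 lists had no replicate check. The study reports testing several FOXA2 antibodies, and the labels do not say whether the pair used the same antibody.

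Human centromeres are built of alpha satellite, a tandem repeat some of whose units carry the CENP-B box, the binding site of the centromere protein CENP-B, and the neighbouring pericentromeric DNA holds other satellites, among them long runs made of the letters ATTCC. The genome also holds several kinds of sequence in many copies elsewhere: LINE-1 and Alu elements that spread by reverse transcription, copies of mitochondrial DNA inserted into the chromosomes, and copies of the ribosomal RNA genes, whose main arrays lie on the short arms of the acrocentric chromosomes. Reference assemblies hold only part of these repeats, and lists of problem regions are commonly kept so that read pileups over them can be set aside. Forkhead factors such as FOXA2 open closed chromatin at a short T-rich motif, and JUN and FOSL1 pair to bind the AP-1 motif.

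The following stretches show what the shared places were made of. All were read from the reference genome of the files' build (hg19, GRCh37), on the plus strand unless stated, and the repeat families they stand for are described below. The first pair are neighbouring units of the tandem repeat at the place of highest score, chr1:121484968-121485138 and chr1:121485139-121485309, and the capitals mark the CENP-B box (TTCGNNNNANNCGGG), which the first unit holds and the next lacks.
171-base unit 1: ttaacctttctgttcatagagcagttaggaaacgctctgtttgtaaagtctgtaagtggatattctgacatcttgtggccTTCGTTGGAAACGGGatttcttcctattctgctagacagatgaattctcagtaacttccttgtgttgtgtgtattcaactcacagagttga
171-base unit 2: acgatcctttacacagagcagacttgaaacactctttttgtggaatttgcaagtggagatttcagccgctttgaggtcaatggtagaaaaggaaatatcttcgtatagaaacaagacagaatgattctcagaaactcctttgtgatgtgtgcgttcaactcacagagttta
The next is the centre of the place of second highest score, chr10:42599793-42599992, in which the capitals mark ATTCC or its complement GGAAT.
Satellite run: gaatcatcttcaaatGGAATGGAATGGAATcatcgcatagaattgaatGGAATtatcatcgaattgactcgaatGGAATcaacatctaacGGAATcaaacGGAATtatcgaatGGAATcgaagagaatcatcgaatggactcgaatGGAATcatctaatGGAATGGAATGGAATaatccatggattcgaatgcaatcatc
A 68-base tandem family and a 26-base tandem family were missed by different lists, as given below, and are shown by neighbouring units of the former at chr18:108800-108867 and chr18:108868-108935, with capitals for the 53 of 68 bases equal in both (77.9%), and by a run of the latter at chr2:87623903-87624006, with capitals for CAGCC or GGCTG.
68-base unit 1: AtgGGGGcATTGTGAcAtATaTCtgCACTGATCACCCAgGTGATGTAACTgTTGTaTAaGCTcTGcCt
68-base unit 2: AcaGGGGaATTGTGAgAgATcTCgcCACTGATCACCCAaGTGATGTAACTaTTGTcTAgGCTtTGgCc
26-base run: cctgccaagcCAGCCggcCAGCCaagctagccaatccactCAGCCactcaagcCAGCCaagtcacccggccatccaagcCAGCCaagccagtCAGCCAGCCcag
The ribosomal copy with the highest score, inside an intron of DLG2, is shown at chr11:85195011-85195130 above the ribosomal repeat of an unplaced contig of the reference (bases 113609 to 113728), and the capitals mark the 2 bases that differ in this stretch, while the whole place was 88.8% identical over its 321 aligned bases.
Ribosomal copy: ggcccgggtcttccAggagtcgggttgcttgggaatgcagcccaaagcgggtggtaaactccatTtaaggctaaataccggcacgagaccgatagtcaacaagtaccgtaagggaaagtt
Ribosomal repeat: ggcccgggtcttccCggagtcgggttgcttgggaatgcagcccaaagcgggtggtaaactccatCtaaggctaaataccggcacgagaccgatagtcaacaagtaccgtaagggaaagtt
The last stretch, chr10:80733377-80733576, is from a shared place without any repeated 50-base word, and the capitals mark its forkhead words and its AP-1 word.
Place without repeated words: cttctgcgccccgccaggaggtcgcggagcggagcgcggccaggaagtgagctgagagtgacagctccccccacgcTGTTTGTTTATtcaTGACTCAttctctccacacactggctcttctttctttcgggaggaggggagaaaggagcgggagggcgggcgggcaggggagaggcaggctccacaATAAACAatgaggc

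Most regions of the PC3 vehicle FOXA2 list were met by few other lists. The median region was in 6 lists and 91.1% were in 10 or fewer. Above that the numbers fell step by step to 144 regions in 16 lists, 106 in 17, 72 in 18, 62 in 19, 56 in 20 and 50 in 21, and rose slightly to 57 regions in all 22. Just outside the rule, the 144 regions in 16 lists had a median score of 271.5 and a median width of 403.5 bp, and 16% lay near a large assembly gap. Just inside it, the 106 places in 17 lists had a median score of 269.5, a median width of 404 bp and a share near a gap of 26.4%. These neighbours were alike in score and width, so 17 lists marks no step in either. The 57 places in all 22 lists had a median score of 1735 and a median width of 848 bp, and 64.9% lay near a gap.

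**Figure D1:**
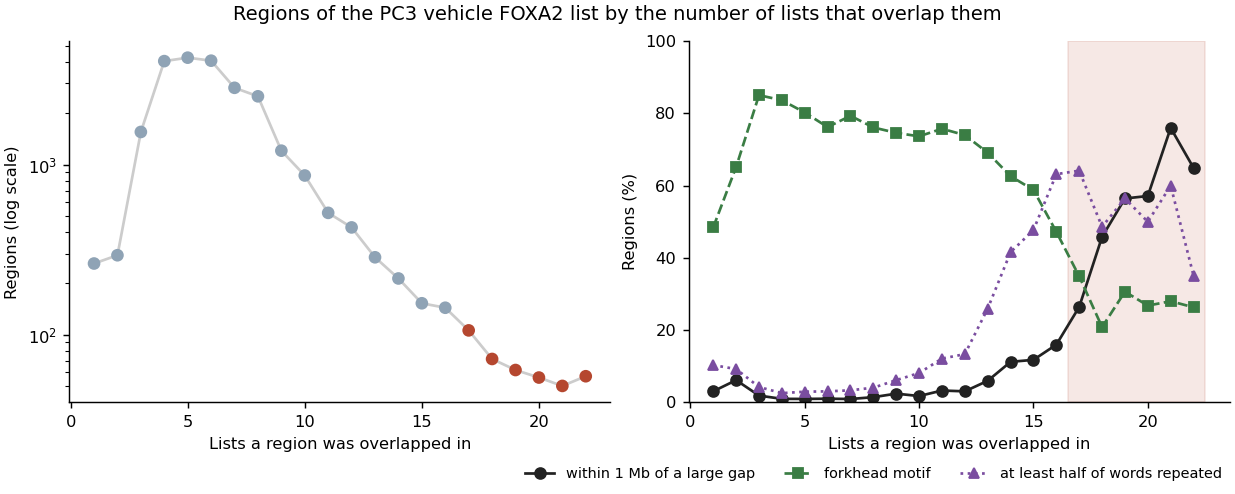
Regions of the PC3 vehicle FOXA2 list by the number of lists that overlapped them (x axis). The left panel gives the number of regions on a log axis, with the shared places in red (106 in 17 lists, 57 in 22). The right panel gives the percentage of regions that lay within 1 Mb of a large gap, held a forkhead motif or had at least 50% of their words repeated, and the shaded band holds the shared places. Forkhead motifs were found in 48.5% of regions in 1 list, 85.1% in 3 and 34.9% in 17. The share near a gap was 1.66% in all other regions together, 76% in 21 lists and 64.9% in 22.

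Shared places were wider and scored higher in the PC3 vehicle list than the other regions. Their median width was 496 bp (quartiles 368.5 to 803.5, widest 5528) against 322 bp. Their median score was 379 (quartiles 183 to 908) against 149, which put the median shared place at the 82.6th percentile of the list and the median other region at the 49.5th. Scores still ran over the whole range, from 13, the lowest in the list, to 125774, the highest. Across the 403 places the number of lists went with width (Spearman's rho 0.446) and with score (0.437). These points share 1 library, and wider regions overlap more easily, so both are descriptions only.

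Many shared places lay beside the large gaps of the assembly. The reference holds 28 gaps of at least 1 Mb, most of which stand for unsequenced centromeric or heterochromatic DNA, and 203 of the 403 places (50.4%, interval 45.5 to 55.2%) lay within 1 Mb of one. Among the other regions 393 of 23635 did (1.66%, 1.51 to 1.83%), a difference of 48.7 percentage points (43.8 to 53.6). Intervals here and below are 95% intervals (Wilson for a share, Newcombe for a difference). They cover counting error only, and regions are not replicates of a condition. Places also crowded together: 16 clusters of at least 5 places, each within 1 Mb of the next, held 181 of them (44.9%). When every run of places within 1 Mb of each other was counted once, 31 of 188 runs (16.5%) lay near a gap. Chromosome ends held 8 places (1.99%, 1.01 to 3.87%) against 0.732% of the other regions, a difference of 1.25 points (0.270 to 3.14).

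Chromosomes 16 and Y stood out in what they held. Chromosome 16 had 27 places, 6.70% of all, against 1.23% of the other regions, and chromosome Y had 17 places, all near a gap, against 33 other regions (0.140%). The largest numbers were on chromosomes 2 (48), 4 (45) and 10 (30). The largest cluster spanned chr4:49093442-49660058 and held 33 places, of which 22 were of the ATTCC family and 8 of a 147-base tandem family. The next were chr10:42355500-42666955 with 21 places, 15 of them ATTCC, chr16:46386685-46435526 with 18 places, all ATTCC, and chr2:91596744-92325941 with 18 places, 15 of a 171-base tandem family. On chromosome Y a cluster at chrY:13453114-13868729 held 9 places, 6 of them of the 68-base family. No place of the clusters at chr16:33237425-34023065 and chr2:132997300-133034863, with 9 places each, lay near a gap.

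Genes were met less often. Of the shared places 321 (79.7%, 75.5 to 83.3%) were intergenic with respect to protein-coding genes against 49.5% of the other regions, a difference of 30.2 points (25.9 to 33.9). Introns held 69 (17.1%) against 41.8%, a difference of -24.7 points (-28.1 to -20.6). Promoters, taken as 1 kb on either side of a transcript start, held 9 (2.23%) against 4.01%, and the interval of that difference (-2.86 to 0.197 points) included 0. Coding exons held 2 places, UTRs 1 and other exons 1. The 9 promoters were those of TRIB1, KIF9 with KLHL18, ARID5B, FSTL4, CDC27, FOXJ3, MUC3A, MAL2 and MUC2. More than 1 place lay in PCBD2, CDC27 and ANKRD30BL (3 each) and in CACNA2D3 (2).

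Most shared places held some sequence that occurs more than once in the genome. Each region was cut into all its words of 50 bases, near the read length of 51. The exact copies of each word in the genome were counted on both strands, and a word with more than 1 copy was called repeated. At least 50% of the words were repeated in 216 places (53.6%, 48.7 to 58.4%) against 5.33% of the other regions, and the difference was 48.3 points (43.4 to 53.1). Only 30 places (7.44%) held no repeated word at all against 86.1% of the other regions. A CENP-B box lay in 66 places (16.4%, 13.1 to 20.3%) against 29 other regions (0.123%). At least 20% of the bases belonged to ATTCC or its complement in 79 places (19.6%, 16 to 23.8%) against 54 other regions (0.229%). Runs of simple repeats with units of 1 to 6 bases made up 53 places (13.2%) against 41 other regions (0.173%). An internal repeat with at least 60% identity at about the unit length of alpha satellite was found in 42 places (10.4%) against 72 other regions (0.305%). Of those 42 places 14 were of the 171-base family and 27 of the ATTCC family, whose 5-base repeat also repeats at such a spacing, so this measure does not single out alpha satellite.

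The motifs of the profiled factors were scarcer. The forkhead motif (TATTT or TGTTT followed by AC or AT or GC or GT, on either strand, within 100 bp of the centre) was found in 115 places (28.5%, 24.3 to 33.1%) and in 77.2% of all regions of the list. Against the other regions (78.0%) the difference was -49.5 points (-53.7 to -44.9). The AP-1 motif (TGACTCA or TGAGTCA, each the complement of the other) was found in 12 places (2.98%, 1.71 to 5.13%) and in 26.3% of all regions, with a difference from the other regions of -23.7 points (-25.1 to -21.5). The ETS motif CCGGAAGT was found in 4 places (0.993%) and in 0.204% of all regions. The cyclic AMP response element TGACGTCA was found in no place and in 33 other regions, and CCGCGNGGNGGCAG of the CTCF motif in neither. Median GC content was 41.3% in shared places and 38.1% in the other regions.

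The shared places were grouped by their own sequence after they had been chosen, so the groups are a description. Places were joined when they aligned to each other over at least 150 bases with at least 75% identity. This gave 5 tandem families, named by the length of their unit or its letters, an Alu-like family and 3 dispersed families. Copies of mitochondrial and ribosomal DNA were found by alignment to the mitochondrial genome and to the ribosomal repeat. The remaining 65 places are called other places. No repeat annotation was used, and the names alpha satellite, LINE-1 and Alu rest on general knowledge of these sequences.

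The 171-base tandem family, the unit length of alpha satellite, was the largest group with 94 places (23.3%) and held all 66 places with a CENP-B box. It had the highest scores, with a median of 922 (62 to 125774), and 81 of its places lay near a gap. They lay on 18 chromosomes, with 17 on chromosome 2, 13 on chromosome 8, 12 on chromosome X and 11 on chromosome 11. A forkhead motif was found in 55 of the 94 (58.5%), more than in any other group of shared places, and an AP-1 motif in none. Of the family 17 places were in all 22 lists and the median place in 20.

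Its leading place, chr1:121484100-121485428, is 1329 bp wide and ends 6 bases from the gap of the chromosome 1 centromere. Over the 20 scored lists its score was 2146 at the lowest, 94534 at the median and 210594 at the highest. It was the top-ranked region of 16 of these lists, FOXA2, JUN, FOSL1, H3K27ac, H3K4me2 and PC3 ATAC among them. It was at rank 4 in the NCI-H660 ATAC list and in the FOXA2OE JUN list, and stood at rank 326 and 114 in the unlabelled pair. The next of the family were chr19:27731887-27733431 (score 31791, median rank 5 over the scored lists), chr7:61968675-61969809 (18374, median rank 6), chr18:18518119-18520326 (9282, median rank 14.5) and chr9:69710790-69711331 (8335, median rank 16.5). The chromosome 9 place is the highest-scoring one that is not near a gap, at 4243110 bases from the nearest.

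The ATTCC family held 80 places (19.9%), 79 of them near a gap, with a median score of 404 (42 to 32545). A median of 31.3% of their bases belonged to ATTCC or its complement. They lay mostly on chromosomes 4 (22), 10 (19), 16 (18) and 2 (10). Only 2 of the 80 held a forkhead motif and none an AP-1 motif. The leading place, chr10:42599342-42600444, had scores from 1425 to 40417 over the 20 scored lists with a median of 24581, and a median rank of 3. It was followed by chr10:42384291-42385727 (30789 in the vehicle list, median rank 4), chr10:42596799-42598204 (22284, median rank 5.5), chr10:42395825-42397056 (11353, median rank 8.5) and chr2:92269067-92269775 (9208, median rank 9.5). All of these were in all 22 lists. The 10 shared places of highest score in the vehicle list were all of these 2 families. Of the 10 highest-scoring regions of the whole list, 9 were shared places.

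The smaller tandem families differed in strength. The 147-base family held 13 places, 12 of them near a gap and 8 on chromosome 4, with a median score of 130. Its leading place, chr21:9698713-9700795, scored 720 and was in all 22 lists. The 68-base family, the unit length of beta satellite, held 11 places with a median score of 410, 8 of them on chromosome Y. Its leading place, chr18:107902-109834, lay away from the centromere, 107901 bases from the chromosome end, in the pseudogene ROCK1P1. It scored 4655 in the vehicle list and 322 to 22002 over the scored lists, and it was in all 22. The 26-base family held 8 places, 5 of them on chromosome 2, with a median GC content of 66.9% and a median score of 55. Its leading place, chr2:87623730-87624179, scored 221.

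Dispersed families A (45 places) and B (42 places) were parts of 1 long element. All 87 aligned along a stretch of 5.94 kb at chr1:235545137-235551078, in an intron of TBCE, with a median identity of 91.8% (84.3 to 100%). The stretch was taken around 1 place of family A, and the 100% is that place aligned to itself. The next highest identity was 98.2%. Family B covered the first 2.82 kb of this stretch and family A the part from 2.78 kb to its end. Its letters are those of LINE-1. The places themselves were scattered, family A over 18 chromosomes and family B over 19, and only 1 of each lay near a gap. The most copied word of a place had up to 3742 exact copies in family A and 11466 in family B. A forkhead motif was found in 10 places of family A (22.2%) and 19 of family B (45.2%). Family B scored higher in the vehicle list, with a median of 541.5 (138 to 1567) against 256 (48 to 2290), but 31 of its 42 places were in exactly 17 lists and none was in more than 20.

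**Figure D2:**
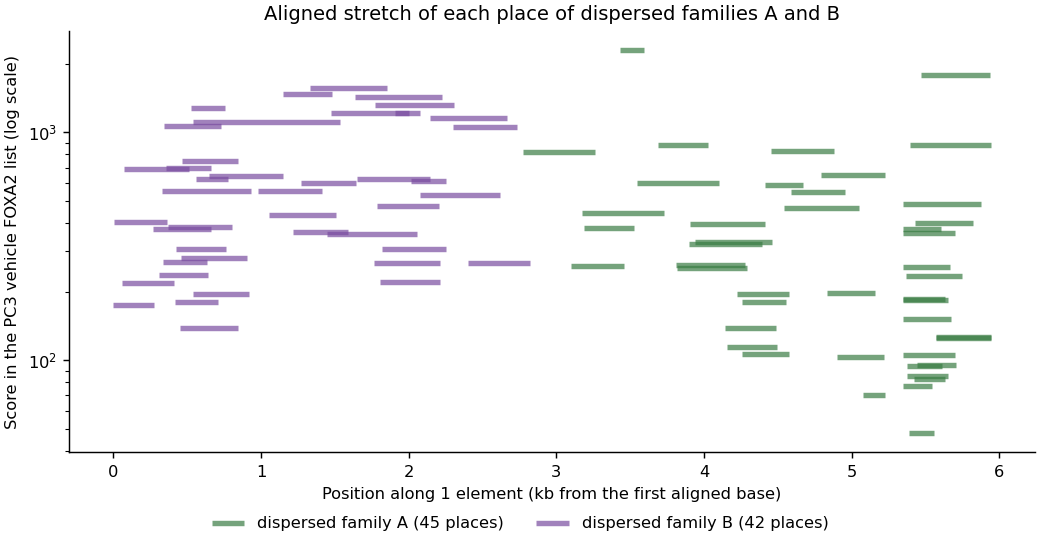
Position of the 45 places of dispersed family A (green) and the 42 places of dispersed family B (purple) along 1 element of 5.94 kb (x axis, kb), with the score of each in the PC3 vehicle FOXA2 list on a log axis. Each bar spans the aligned stretch of 1 place. The families meet near 2.8 kb with almost no overlap, family B having median score 541.5 and family A 256.

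Other copied elements were few. Dispersed family C held 5 places with scores from 85 to 138, led by chr12:38207657-38207997. The Alu-like family held 16 places with a median score of 185, and 3 of them were in all 22 lists. Its leading place, chr13:87602857-87603144, was unlike the rest of the family. It scored 3545 in the vehicle list, ranked between 2 and 35 in all 15 scored lists that held it, and was missing from both ATAC lists, the unlabelled pair and the siFOXA2 FOSL1 list. It ranked highest in the NCI-H660 siFOXA2 JUN list (rank 2, score 11107) and in the FOXA2K265R JUN list (rank 3, 17323).

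Copies of mitochondrial DNA made up 11 shared places against 7 other regions. They were 86.7 to 98.5% identical to the mitochondrial genome, and their median score was 641. The longest, chr1:564622-570149, aligned over 5530 bases at 98.5% and was the only one in all 22 lists. A run of 3 lay side by side in introns of PCBD2, a gene for a pterin dehydratase and transcription cofactor, at chr5:134259318-134264010. The copy over an untranslated region of MTRNR2L1, a gene derived from the mitochondrial ribosomal RNA, chr17:22023529-22024059, scored 691 (rank 1537) in the vehicle list. It scored 19541 (rank 8) in the NCI-H660 ATAC list and 64450 (rank 6) in the PC3 ATAC list, and was missing from the H3K27ac and FOXA2OE JUN lists.

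Copies of ribosomal DNA made up 13 shared places against 1 other region, and 12 of the 13 were in all 22 lists. Their identity to the ribosomal repeat was 81.6 to 99.7%. They came from different parts of it, given here in kb from the middle of the stretch that matched the 5.8S gene. The pair on chromosome 20 came from -6.05 to -4.53 kb and the pair at chr21:9825498-9827535 from -4.53 to -2.49 kb. Those of HFM1, SLCO5A1 and chromosome X came from 4.91 to 5.78 kb. The leading place by score, chr11:85195011-85195304 in an intron of DLG2, a synaptic scaffold gene, scored 2274 (rank 86) in the vehicle list, and its scores ran from 288 to 35489 with a median of 1418. Its highest score was in the PC3 ATAC list (rank 17) and its lowest rank, 17246, in the H3K27ac list (score 578). The only copy short of 22 lists, in GCNT1, was also the lowest in identity and in score (138).

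The other 65 places were mixed. Their median score was 231, 11 lay near a gap and 5 were in all 22 lists, among them an intronic place in the unconventional myosin gene MYO1D (chr17:31149485-31149873, 82.5% GC). Of the 65, 26 held no repeated word, and so did 4 places of the named families. Over these 30 places a forkhead motif was found in 14 (46.7%) and an AP-1 motif in 9, against 77.2% and 26.3% of all regions. TRIB1, which encodes a pseudokinase, had the leading one at its promoter (chr8:126442261-126442672). That place scored 4275 (rank 25) in the vehicle list and was missing from the siFOXA2 FOSL1 and FOXA2OE FOXA2 lists. Its JUN score was 2304 (rank 59) in PC3 siNC and 575 (rank 157) in siFOXA2, and 3137 (rank 34) in NCI-H660 siNC and 2125 (rank 31) in siFOXA2. The place printed above, chr10:80733285-80733669, lies 95053 bases from ZMIZ1, a gene for a coregulator of the androgen receptor. It scored 2518, held 3 forkhead words and the AP-1 word TGACTCA, and was missing from the 3 lists LNCaP siNC JUN, siFOXA1 JUN and FOXA2OE FOXA2 and from siFOXA2 FOSL1.

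Further places outside the tandem and dispersed families lay in genes, with or without repeated words. CDK5RAP1, an RNA-modifying enzyme gene, had a place in a coding exon (chr20:31961509-31962067, score 913, 17 lists). CUL3, the scaffold of a ubiquitin ligase, had one in a further exon (chr2:225350021-225350485, score 2027, 17 lists) that was missing from LNCaP siNC JUN, siFOXA1 JUN, FOXA2OE JUN, FOXA2OE FOXA2 and siFOXA2 FOSL1. GDF15, a stress-induced cytokine gene, had one in an intron (chr19:18490924-18491346, score 284, 17 lists). The 3 places of CDC27, a subunit of the anaphase-promoting complex, scored 169, 197 and 213 and included its promoter. The first of them was of the Alu-like family, and 25.5%, 6.51% and 8.05% of their words, in the same order, were repeated. Of the 26 places without repeated words outside the families, 26 were in the H3K27ac list, against 97.8% of all shared places and 58.7% of all regions. The PC3 ORY-1001 and C12 FOXA2 lists and the NCI-H660 ORY-1001 FOXA2 and ATAC lists also held all 26. The FOXA2OE FOXA2 list held 8 (30.8%), against 95.3% of all shared places and 4.87% of all regions.

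Between 38.0% and 100% of the shared places were in a given list. The places were chosen for being in most lists, so none of the following shares is a test. For FOXA2, the PC3 ORY-1001 list overlapped 99.8% of the shared places and 36.8% of all regions, and the C12 list 98.3% and 29.6%. The doses of the inhibitors differ, so these values stand side by side only. The NCI-H660 lists overlapped 97% of the places under vehicle, against 11.1% of all regions, and 100% under ORY-1001, against 11%. The FOXA2OE FOXA2 list, with only 2500 regions, overlapped 95.3% of the places and 4.87% of all regions. The FOXA2 lists of NCI-H660 and FOXA2OE cells met few PC3 FOXA2 regions but nearly all of the shared ones. The shared ones were chosen for being in most lists, these included.

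For JUN, the PC3 lists overlapped 97.5% of the places after siNC, against 44.3% of all regions, and 96.3% after siFOXA2, against 8.57%. In NCI-H660 cells the shares were 98.5% after siNC, against 8.4%, and 75.9% after siFOXA2, against 5.29%. In LNCaP cells they were 93.8% after siNC, against 5.25%, and 94.5% after siFOXA1, against 4.18%. The FOXA2OE JUN list overlapped 38.0%, the fewest of any list, against 1.38%, and the FOXA2K265R JUN list 70.5%, against 4.13%. For FOSL1 in PC3 cells the shares were 97.3% after siNC, against 7.24%, and 50.9% after siFOXA2, against 1.3%. In PC3 the share of all vehicle regions met by JUN after siFOXA2 was a fraction of that after siNC. The share of the shared places was nearly as high in both, but these places were chosen for being in most lists, both of these included.

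The 4 chromatin lists each met over 90% of the places, which 6 of the 18 factor lists did not. H3K27ac in PC3 overlapped 97.8%, against 58.7% of all regions, and H3K4me2 in NCI-H660 98%, against 14.2%. The ATAC lists overlapped 98.5% in PC3, against 89.3%, and 94.3% in NCI-H660, against 22.6%. Only in the unlabelled pair did the order turn: these lists overlapped 59.8% and 58.8% of the shared places but 92.5% and 90.8% of all regions. The pair agreed place by place, with 229 places in both, 154 in neither, 12 in the first only and 8 in the second only.

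**Figure D3:**
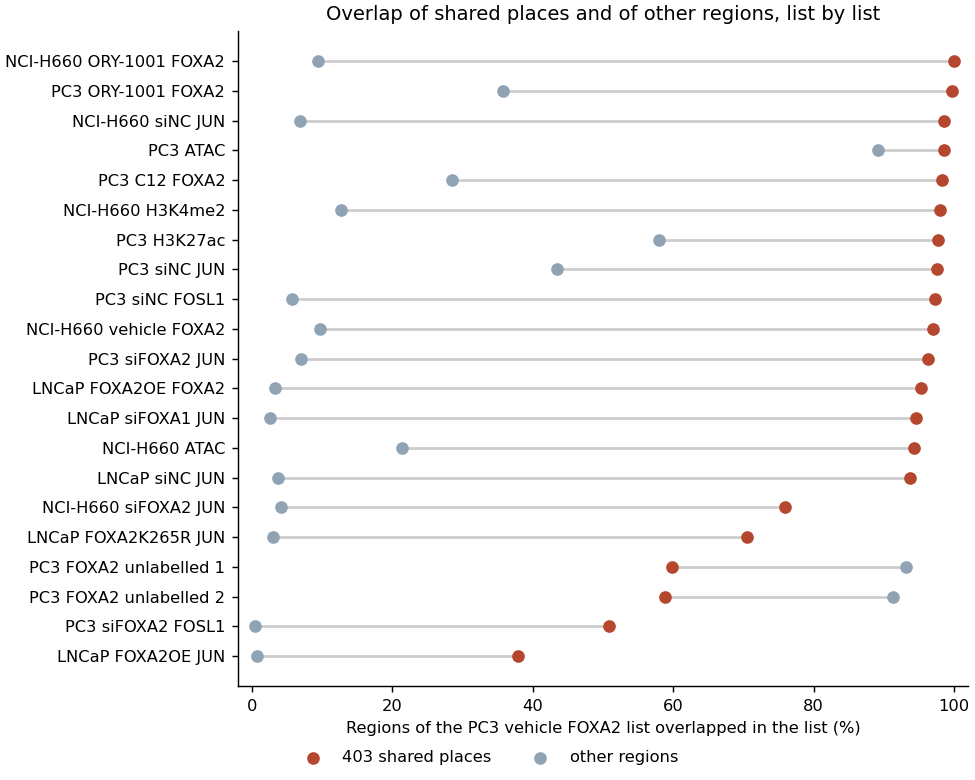
Percentage of the 403 shared places (red) and of the other regions (blue) of the PC3 vehicle FOXA2 list that each of the other 21 lists overlapped by at least 1 bp (x axis). A line joins the values of 1 list. Shared places lie to the right in every list except the unlabelled pair, where they stand at 59.8% and 58.8% against 93.1% and 91.3% of the other regions.

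Absences were concentrated in a few lists. Over the 403 places there were 1166 absences, and 992 of them (85.1%) were in 6 lists: FOXA2OE JUN (250), siFOXA2 FOSL1 (198), FOXA2K265R JUN (119), NCI-H660 siFOXA2 JUN (97) and the unlabelled pair. The other 15 lists each missed under 10% of the places. The commonest pattern after presence in all lists, with 38 places, was absence from FOXA2OE JUN, FOXA2K265R JUN, NCI-H660 siFOXA2 JUN and the unlabelled pair, and 28 of these were of dispersed family B. In 36 places FOXA2OE JUN alone was missing. Region identifiers name the folder in which a list was processed, and the FOXA2OE JUN list, the FOXA2K265R JUN list and the unlabelled pair came from folders of their own, so folder and condition cannot be told apart for them. The PC3 FOSL1 lists shared a folder, as did the NCI-H660 JUN lists.

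The lists differed in which sequence they missed. The unlabelled pair held no place of dispersed family B, 8 and 4 of the 45 places of family A and none of the 8 places of the 26-base family, but all 11 mitochondrial copies, all 13 ribosomal copies and all 11 places of the 68-base family. It held 78.8% and 80.3% of the places near a gap but 40.5% and 37% of those farther away. The FOXA2OE JUN list was unlike the pair in holding all 8 places of the 26-base family, only 1 of 11 of the 68-base family, 2 of 11 mitochondrial copies and 31% of the places near a gap. It was like the pair in holding all 13 ribosomal copies and few places of family B (3 of 42). Family B was also thinned in the FOXA2K265R JUN list (10 of 42) and in the NCI-H660 siFOXA2 JUN list (8 of 42), while the siFOXA2 FOSL1 list, which missed 198 places, held 37 of 42.

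The chromatin lists differed from each other at the mitochondrial copies and at some repeat families. H3K27ac held 4 of the 11 mitochondrial copies and H3K4me2 8, whereas both ATAC lists held all 11. NCI-H660 ATAC, which missed the most places of the 4 lists (23), held 71 of the 80 places of the ATTCC family, 90 of the 94 of the 171-base family, 41 of the 45 of dispersed family A and 13 of the 16 of the Alu-like family. H3K27ac, H3K4me2 and PC3 ATAC held all 80 places of the ATTCC family. Of the 16 places of the Alu-like family PC3 ATAC also held 13, H3K4me2 held 14 and H3K27ac all 16. The median mitochondrial copy held stood at the 28.5th score percentile of the H3K27ac list and above the 99.9th of both ATAC lists. Family B, present in full in all 4 of these lists, stood at the 71st percentile for H3K27ac, 75.5 for H3K4me2, 80.1 for PC3 ATAC and 39.1 for NCI-H660 ATAC.

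**Figure D4:**
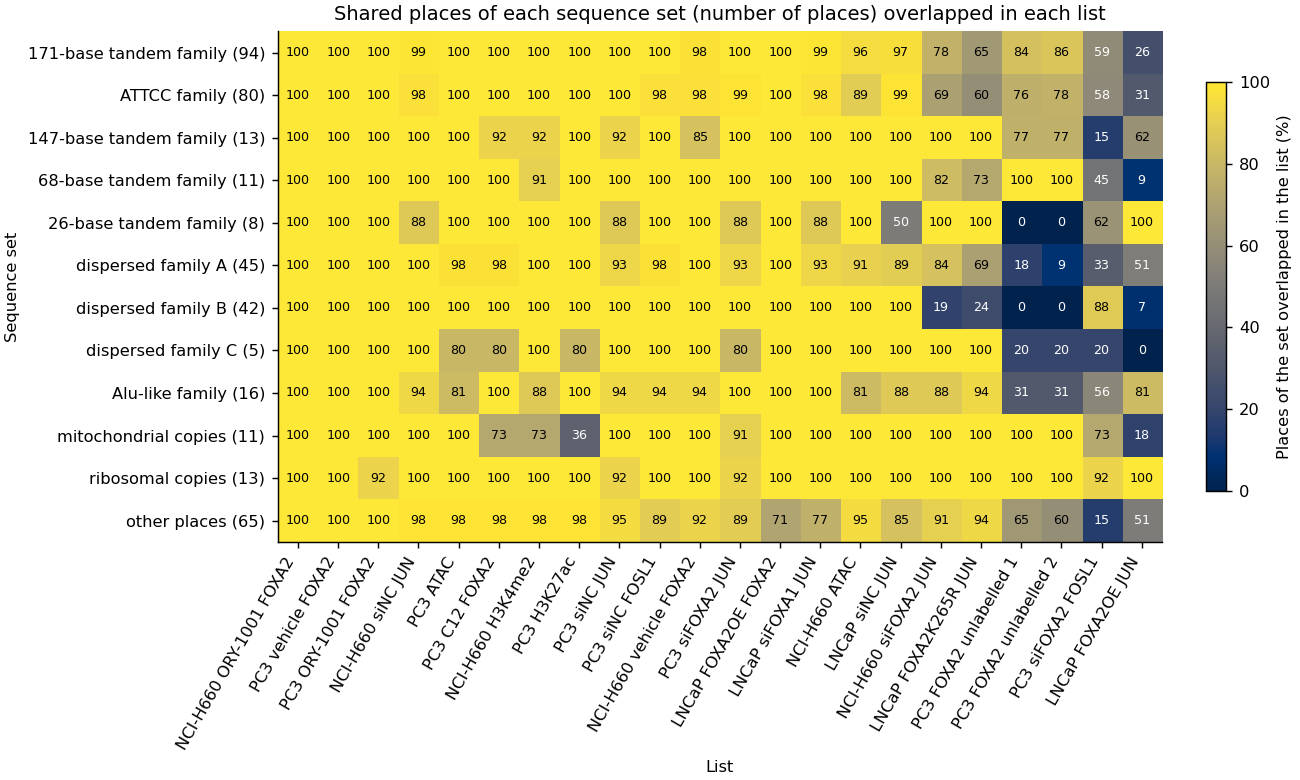
Percentage of the places of each sequence set (y axis, number of places in brackets) that each of the 22 lists overlapped (x axis, ordered by the share of all 403 places). Darker cells are lower. The 6 columns at the right hold most of the absences, and within them dispersed family B is at 0 of 42 places in the unlabelled pair while ribosomal copies are at 13 of 13.

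Where a list held shared places, it usually ranked them high. The median held place stood at the 82.6th score percentile of the PC3 vehicle list, and the medians of the 20 scored lists ran from 59.3 in NCI-H660 ATAC to 99.1 in FOXA2OE JUN. The 3 highest medians belonged to lists that missed many places, FOXA2OE JUN, FOXA2K265R JUN (98.8) and NCI-H660 siFOXA2 JUN (98). Medians were lower in the other lists that missed many, siFOXA2 FOSL1 (91.2) and the unlabelled pair (69.2 and 75.2). Shared places took 92 of the 100 highest scores in the siNC FOSL1 list, 85 in the PC3 siFOXA2 JUN list, 84 in the siFOXA1 JUN list and 40 in the PC3 vehicle list. They took 9 in the H3K27ac list and 0 and 2 in the unlabelled pair.

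**Figure D5:**
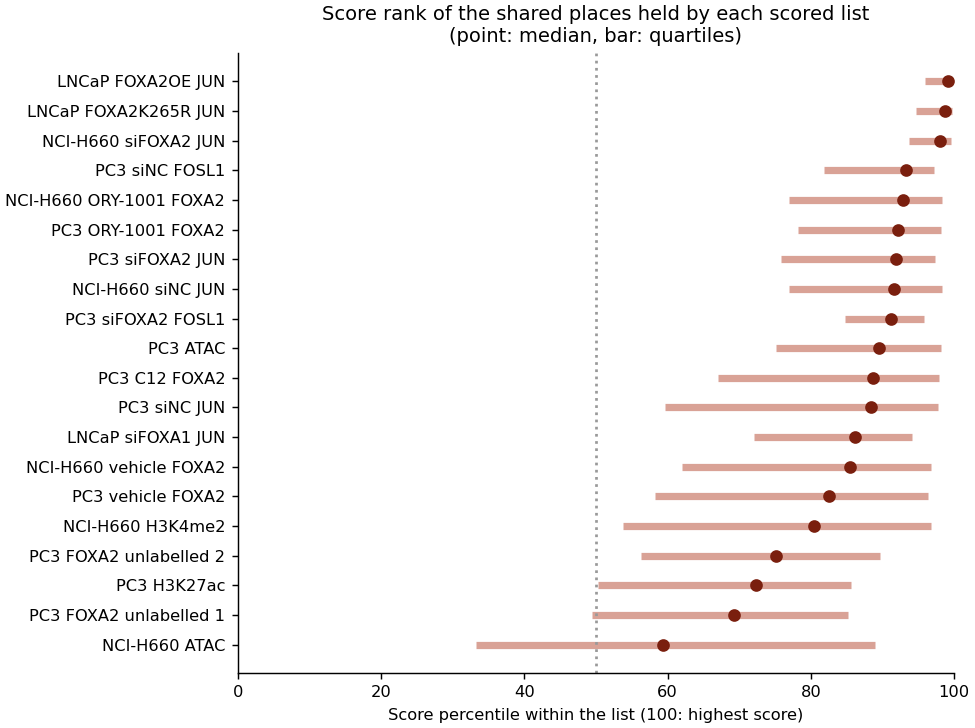
Score percentile of the shared places within each scored list (x axis, 100 for the highest score), over the places the list held. Points are medians and bars run from the lower to the upper quartile, and the dotted line marks the middle of a list. All 20 medians lie above it, from 59.3 to 99.1.

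Shared places made up a larger part of short lists than of long ones. The rule put most of them in most lists, so this share follows largely from the length of a list and is a description only. Regions lying on shared places were 20.2% of the LNCaP siFOXA1 JUN list (396 of 1964), 16% of the LNCaP siNC JUN list (387 of 2421), 14.6% of the siFOXA2 FOSL1 list (224 of 1538) and 14.4% of the FOXA2OE FOXA2 list (360 of 2500). They were 1.68% of the PC3 vehicle list, 0.442% of the H3K27ac list and 0.221% of the PC3 ATAC list. For the same reason the share was higher in the shorter list of a comparison. It was 1.62% for PC3 JUN after siNC (23890 regions) and 9.46% after siFOXA2 (4081), and 10.5% for FOSL1 after siNC (3843) and 14.6% after siFOXA2 (1538). In NCI-H660 cells, where the siFOXA2 JUN list was longer (59452 against 18401), it was 0.503% against 2.06%.

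Under ORY-1001 the median score at the shared places was higher than under vehicle in PC3 and NCI-H660 cells. Over the whole list it was lower in PC3 cells and nearly equal in NCI-H660 cells. Under C12 in PC3 cells, and after siFOXA2 in PC3 and NCI-H660 cells, it was lower in both. Each median covers the places that the list held, and these differ between arms (392 for FOSL1 after siNC and 205 after siFOXA2). For PC3 FOXA2 the median score over the held places was 379 under vehicle, 465 under ORY-1001 and 357.5 under C12, while the medians of all regions were 150, 90 and 118. For NCI-H660 FOXA2 it was 348 under vehicle and 544 under ORY-1001, with list medians of 134 and 131. For PC3 JUN it was 420 after siNC and 359 after siFOXA2, with list medians of 150 and 90, and for FOSL1 380.5 and 104, with list medians of 78 and 17. For NCI-H660 JUN it was 447 after siNC and 301 after siFOXA2, with list medians of 78 and 39. Each of these rests on 1 library with unknown depth, and the cause of any difference was not tested.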

How the data were processed

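Per the labels and the study's methods, chromatin was crosslinked, sonicated and immunoprecipitated for ChIP-seq, and the ATAC-seq labels hold the same text although the study describes transposase libraries. The submitters' processing notes name FastQC 0.11.9, BWA 0.7.17-r1188, SAMtools 1.9, MACS2 2.1.4 and hg19. The control library, the MACS2 settings, the treatment of duplicates and reads with several matches, and any removal of problem regions are not given in the sources used here. The authors deposited 22 lists of intervals, 20 with a whole-number score, read here as MACS2's own, and 2 with coordinates only. The depth is unknown, and each list was taken as 1 library.

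Overlaps, distances and annotation classes (GENCODE 44 on GRCh37) were computed with Python 3.11.15 and pandas 2.3.3, sequence was read with samtools 1.23.1, and alignments were made with blastn of BLAST+ 2.17.0. A mitochondrial or ribosomal copy needed 100 aligned bases at 70% identity. The ribosomal repeat was taken as 6.5 kb on either side of the middle of the 5.8S match. Families and tandem units were checked on simulated sequences. In 3 of the other regions the reference holds no bases, and these were left out of sequence measures. Shares carry Wilson 95% intervals and differences Newcombe intervals, with no p-value. Members and lists were chosen with earlier results of these data known. Named places are the 10 highest scores, at most 10 by score of the places in all 22 lists, the highest-scoring place of each class or set, and clusters, of which 3 are not reported here. Genes named are those at named places and those with 2 or more places. The places at ZMIZ1, MYO1D, GDF15, GCNT1, HFM1, SLCO5A1 and chr1:564622-570149 and the promoter genes were named after their values were seen.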

Additional observations from a re-analysis of the deposited data

How the results depend on the processing

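Of 39 alternatives, 26 of them planned and 13 chosen after seeing the data, 22 left a value within a margin and 17 moved it. No share set beside that of the other regions changed the direction of its difference. A reversal was not defined for counts, percentiles, widths and the share of overlaps found. The margin was the 95% interval for a share, 5 points for a percentile and a fixed factor for a count or width. For counts it was wide: 297 places with 18 or more lists and 559 without the unlabelled pair both fell within it. The 403 places became 547 with 16 or more lists, 163 with 20 or more and 82 when scored lists were limited to their 5000 highest scores. Leaving out 1 list of the unlabelled pair and asking for 16 or more of 21 gave 493 to 495 places. The share near a large gap, 50.4%, became 42.2% within 500 kb, 59.8% within 5 Mb (other regions 6.62%), 41.3% with 16 or more lists, 65.6% with 20 or more, 39.7% with 15 or more of the 20 lists outside the unlabelled pair (559 places) and 16.5% with 1 count for each run of places. The share with the spacing of alpha satellite, 10.4%, became 2.23% at 70% identity and 6.95% in a window of 4 kb. The share in repeated sequence, 53.6%, became 79.2% where 10% of words sufficed (other regions 9.04%), 63.5% with words of 36 bases (6.47%) and 62.6% with 15 or more of the 20 lists outside the unlabelled pair. Within 250 bp the forkhead share became 52.9% (other regions 90.3%) and the AP-1 share 5.71% (35.2%). The median score percentile became 94.5 with 20 or more lists, and the share of all overlaps found, 86.2%, became 79.6% where at least 50% of a region had to be covered. No paired analysis was possible because 20 of the 21 groups held 1 list and no result came from a test between groups. The unknown depth and thresholds of the lists limit what an absence shows, and reads from near-identical copies cannot be told apart.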
